A study of Homo sapiens with 24 samples.

Results

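The genes described here encode the DNA replication machinery: the proteins that mark origins, unwind DNA, load the sliding clamp, copy both strands and package the new DNA. They were chosen from a written list of 40 gene symbols with 8 roles, and 39 of the 40 are among the 16591 genes of the deposited expression table. POLA2, the B subunit of DNA polymerase alpha, was not analysed here. RNA was sequenced from 4 human cancer cell lines, BT549 and MDAMB436 from breast and OVCAR8 and COV362 from ovary. Each line received either the vehicle DMSO or 5 µM EPZ015666, also called GSK3235025, an inhibitor of the arginine methyltransferase PRMT5. All 4 lines were sampled after 5 days, and BT549 and OVCAR8 also after 3 days, each day with its own DMSO group. This gives 12 groups of 2 libraries, A and B, or 24 libraries. Nothing in the labels ties A and B to different cultures, so a p-value here is set against a spread between 2 libraries that may be only technical. Each tissue is represented by 2 lines, and no line has an untreated group.

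The libraries held 23.8 M to 44.9 M reads recovered from the table (median 27.8 M). Values are RPKM, reads per kilobase scaled to library size, and the kilobases are those of the whole gene span with introns, so a gene with long introns has a low RPKM. Of the markers used for ovarian cells PAX8 was at 0.326 RPKM in COV362, 0.0713 in OVCAR8 and 0.000256 or less in the breast lines. WT1 did not separate the tissues, at 0.119 in COV362, 0.0463 in OVCAR8, 0.173 in BT549 and 0.1645 in MDAMB436. Epithelial EPCAM was at 1.69 RPKM in COV362, 0.622 in OVCAR8, 0.0637 in MDAMB436 and 0.000658 in BT549, and the keratin KRT18 at 119, 172, 49.0 and 8.83. KRT7 and KRT8 were at 46.0 and 18.8 in COV362 and 24.6 and 25.6 in OVCAR8, and at 1.25 or less in the breast lines. KRT19 was at 34.5 in COV362, 0.121 in BT549, 0.0170 in MDAMB436 and 0.00738 in OVCAR8. Mesenchymal VIM was at 120 RPKM in BT549 and in COV362, 111 in OVCAR8 and 48.9 in MDAMB436. FN1 was at 10.6 in OVCAR8, 3.70 in BT549, 1.90 in COV362 and 0.430 in MDAMB436. Mesothelin (MSLN) reached 13.5 RPKM in COV362 and 22.9 in OVCAR8, beside 1.58 in BT549 and 0.511 in MDAMB436. The luminal breast marker PGR was listed at 0 in every BT549 library, at 0.000864 RPKM in MDAMB436, 0.171 in OVCAR8 and 0.00683 in COV362. ESR1 and CDH1 were not analysed here. GATA3, another luminal marker, was at 4.57 RPKM in BT549, 0.449 in OVCAR8, 0.0770 in COV362 and 0.0601 in MDAMB436. Endothelial PECAM1 stayed at 0.0818 RPKM or less in all 4 lines, and CDH5 was at 0.811 in COV362 and at 0.00381 or less in the others.

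DNA replication starts when the origin recognition complex, CDC6 and CDT1 load the MCM2-7 ring onto DNA, and geminin (GMNN) holds CDT1 back once replication has begun. CDC45, the GINS complex and MCM10 turn the loaded ring into an active helicase, polymerase alpha with primase starts each strand, and polymerases epsilon and delta extend them on the PCNA clamp that RFC loads. Many of these genes are transcribed before S phase by E2F factors, and their RNA levels follow how many cells are dividing. PRMT5 adds symmetric dimethyl marks to arginines of histones and of splicing proteins.

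The E2F recognition sequence is common near the starts of these genes, and 8 windows are printed, all chosen from members with a match. Promoters, 250 bases before to 50 after a gene's start, came from RefSeq on GRCh38.p14, and 36 of the 40 listed genes matched an entry. MCM4, MCM5, GINS4 and POLD3 did not. The forms searched were TTTCCCGC, TTTCGCGC, TTTGCCGC and TTTGGCGC on both strands, and one of them stood in 17 of the 36 promoters (47.2%) against 908 of all 27305 (3.33%). CCAAT, on both strands, stood in 22 of the 36 (61.1%) and in 9747 of the 27305 (35.7%). Each window has 30 bases on the gene's own strand, with the E2F match in capitals. CDC6 is at chr17:40287875-40287904 (plus strand), MCM3 at chr6:52284728-52284757 (minus), MCM6 at chr2:135876511-135876540 (minus) and MCM7 at chr7:100101388-100101417 (minus). GINS1 is at chr20:25407667-25407696 (plus), PCNA at chr20:5126663-5126692 (minus), POLA1 at chrX:24693770-24693799 (plus) and POLE at chr12:132687342-132687371 (minus).
CDC6: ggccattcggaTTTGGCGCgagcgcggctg
MCM3: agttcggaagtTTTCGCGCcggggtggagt
MCM6: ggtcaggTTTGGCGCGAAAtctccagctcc
MCM7: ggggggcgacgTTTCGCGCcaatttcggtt
GINS1: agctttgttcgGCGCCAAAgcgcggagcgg
PCNA: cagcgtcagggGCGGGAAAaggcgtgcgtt
POLA1: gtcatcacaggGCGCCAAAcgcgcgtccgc
POLE: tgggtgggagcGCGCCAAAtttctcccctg
In MCM6 a match on each strand overlaps the other within the capitals. Each window holds the gene's match nearest to the start of transcription. The matches shown for MCM3, MCM7, POLE, CDC6 and GINS1 lie within 20 bases of it. MCM3 and MCM7 each had another match further upstream, at -174 to -167 and -187 to -180. MCM6 had 4 matches, with those outside its window at -152 to -145 and -148 to -141. POLD1, whose RNA fell in every line, had neither sequence in its promoter. ORC1, ORC6 and RFC4, which also changed in some comparisons, had no E2F match. A match is a string of letters and does not show that a factor binds there.

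Under EPZ015666 the replication genes did not move as a block. Some subunits fell in most lines, above all POLD1 and POLA1, the catalytic subunits of polymerases delta and alpha, and MCM7 and MCM4 of the helicase ring. Others rose, among them POLE, the catalytic subunit of polymerase epsilon, and the origin subunit ORC6. Changes are differences of log2(RPKM + 0.1), which understates the change of genes near 0.1 RPKM. They were tested with limma across all genes with a mean of at least 0.1 RPKM in the line, and a gene is said to rise or fall at a Benjamini-Hochberg adjusted p of at most 0.05. Whether fewer cells carried a transcript or each cell carried less of it cannot be told apart in bulk RNA.

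At day 5 in BT549, 7 of 37 tested members rose and 4 fell, beside 13.6% and 16.6% of all tested genes. In OVCAR8 at day 5, 4 of 37 rose and 8 fell, beside 20.2% and 23.0%. In COV362, 8 of 39 rose and 13 fell, beside 27.6% and 26.4%, and in MDAMB436, 2 of 39 rose and 11 fell, beside 11.3% and 12.4%. At day 3, 1 of 37 rose and 9 fell in BT549, beside 5.76% and 6.98%, and 6 rose and 6 fell in OVCAR8, beside 11.5% and 14.1%. The median change of the members was 0.04 in BT549, -0.06 in OVCAR8, 0.01 in COV362 and -0.14 in MDAMB436 at day 5, and -0.13 in BT549 and 0.02 in OVCAR8 at day 3. The median over all tested genes lay between -0.0046 and 0.0068 in the same 6 comparisons. The share of members that fell stood above that of all genes in 4 comparisons (24.3% in BT549 and 16.2% in OVCAR8 at day 3, 33.3% in COV362 and 28.2% in MDAMB436) and below it in 2 (10.8% in BT549 and 21.6% in OVCAR8 at day 5), differences that were not tested. Over the 6 comparisons 22 members fell at least once and 13 rose at least once, 4 of them in both directions, and 8 did neither. The 4 were CDC6, MCM3, MCM10 and CHAF1A, and the 8 were ORC4, GMNN, MCM2, MCM5, GINS4, POLE2, RRM2 and FEN1. Of these RRM2 was tested in only 2 of the 6 comparisons and FEN1 in 4. Among the 36 members tested in all 6 comparisons 61.1% fell and 33.3% rose at least once, beside 47.4% and 49.8% of 10349 genes, and 16.7% did neither, beside 17.5%.

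**Figure D1:**
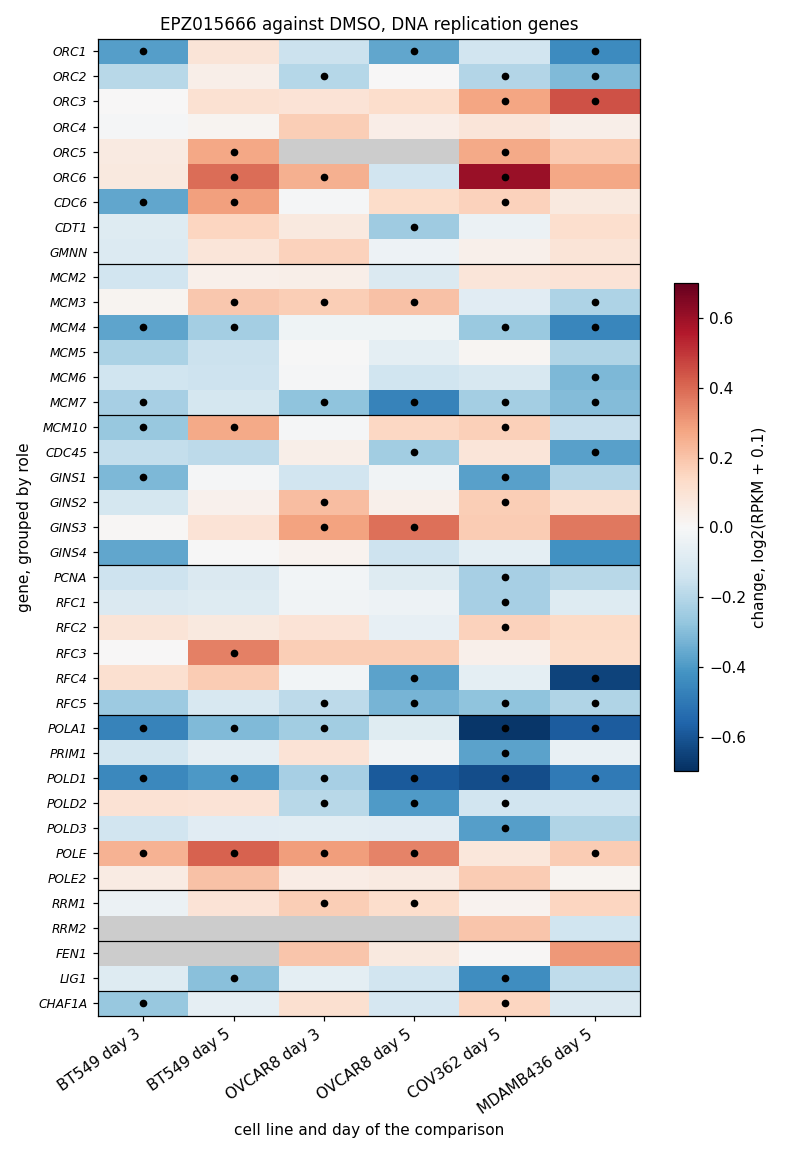
Change of each of the 39 replication genes (vertical axis, grouped by role) under EPZ015666 against DMSO in the 6 line and day comparisons (horizontal axis), as a colour on the log2(RPKM + 0.1) scale. Black dots mark an adjusted p of at most 0.05 and grey cells were not tested; POLD1 is blue with a dot in all 6 columns, and POLE is red in all 6 with a dot in 5.

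Of the 79 calls of members in the 6 comparisons, 22 remained with each library of the line left out in turn. They were CDC6, POLD1 and POLE in BT549 at day 5, CDC6 and MCM4 at day 3, and MCM7 in OVCAR8 at day 3. In OVCAR8 at day 5 they were ORC1, MCM3, MCM7, GINS3, RFC4, RFC5, POLD1, POLD2 and POLE, and in COV362 ORC6, MCM7, PCNA, RFC5, POLA1, POLD1 and LIG1. The other 57 were each lost in at least 1 such fit. The BT549 counts varied with the library left out. Each such fit also has fewer degrees of freedom and a new estimate of the spread. A call can thus be lost while its change stays the same, as for day 3 calls without a day 5 library. Without DMSO day 5 B or EPZ015666 day 5 A, 2 members rose at day 5 and 2 fell, without EPZ015666 day 5 B 4 rose and 1 fell, and without DMSO day 5 A 2 fell. At day 3 the 9 that fell became 5 without EPZ015666 day 5 A or day 5 B, 4 without EPZ015666 day 3 A and 2 without EPZ015666 day 3 B, and the 1 that rose (POLE) was lost without any of 7 of the 8 libraries, all but DMSO day 3 B. In OVCAR8 at day 3 the 6 that rose became 1 without DMSO A, DMSO B or EPZ015666 B of that day and 2 without EPZ015666 A. The 6 that fell became 1 without DMSO day 3 A or B, 2 without EPZ015666 day 3 A, day 5 A or day 5 B, and 3 without EPZ015666 day 3 B. In COV362 the 8 that rose became 2 without EPZ015666 A and 1 without any of the other 3 libraries, and the 13 that fell became 7 without DMSO A or DMSO B. In MDAMB436 no member was called without any of its 4 libraries, each of which leaves 1 residual degree of freedom. With voom on the recovered reads, 10 members rose and 18 fell there. Of all called genes 44.9% were higher in BT549 at day 5 and 45.0% in OVCAR8 at day 3. With voom, which scaled by the recovered reads and not by the total behind the RPKM, the shares were 62.6% and 58.2%.

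The polymerases held the most regular changes. POLD1 (ENSG00000062822.13, chr19:50384204-50418016, plus strand, GRCh38) fell in 6 of 6 comparisons. In COV362 its RPKM was 2.82 and 2.83 in DMSO and 1.78 and 1.83 under EPZ015666, 0.637-fold, a change of -0.62 ± 0.03 (SE; adjusted p = 0.001739). In OVCAR8 at day 5 it was 3.21 and 3.49 against 2.22 and 2.18, a change of -0.59 ± 0.05 (adjusted p = 0.0008563). In MDAMB436 it was 2.79 and 2.63 against 1.82 and 1.97, a change of -0.50 ± 0.06 (adjusted p = 0.0204). In each of these lines both EPZ015666 libraries lay below both DMSO libraries, as they did in BT549 on both days. BT549 had 1.96 and 1.88 in DMSO and 1.43 and 1.42 under EPZ015666 at day 5, a change of -0.40 ± 0.05 (adjusted p = 0.004678). At day 3 it had 1.94 and 2.11 against 1.48 and 1.42, a change of -0.45 ± 0.05 (adjusted p = 0.008549). OVCAR8 at day 3 gave the smallest fall, from 3.01 and 3.19 to 2.69 and 2.57, a change of -0.23 ± 0.05 (adjusted p = 0.02872). Another annotated gene on the same strand, AC020909.1, covers 27.2% of POLD1's exon bases, and reads there could be counted to either or to none. With 1 library left out the call remained in all 8 fits in BT549 and OVCAR8 at day 5 and all 4 in COV362. It remained in 7 of 8 in BT549 at day 3, failing without EPZ015666 day 3 B, in 2 of 8 in OVCAR8 at day 3, failing without any library of day 3 and without EPZ015666 day 5 A or B, and in 0 of 4 in MDAMB436.

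POLA1 (chrX:24693919-24996986, plus strand), which extends the RNA primer with the first DNA bases, fell in 5 comparisons. Its span is the longest of the named members, and its RPKM was low. COV362 had 0.313 and 0.312 RPKM in DMSO and 0.158 and 0.156 under EPZ015666, 0.504-fold, a change of -0.68 ± 0.06 (adjusted p = 0.003517). MDAMB436 had 0.211 and 0.223 against 0.113 and 0.111, 0.515-fold, a change of -0.58 ± 0.08 (adjusted p = 0.02317). In BT549 the DMSO libraries of day 3 had 0.347 and 0.321 and the EPZ015666 libraries 0.214 and 0.215, a change of -0.47 ± 0.06 (adjusted p = 0.0104). The groups did not overlap in these lines, and the EPZ015666 libraries of each lay close together. The BT549 call of day 3 missed the threshold without EPZ015666 day 3 B (adjusted p = 0.05504), and that of MDAMB436 without any of its 4 libraries. In BT549 at day 5 it fell by 0.31 and in OVCAR8 at day 3 by 0.24 on the log2 scale, calls lost without any of the 4 BT549 libraries of day 5 and without any of the 8 OVCAR8 libraries. In OVCAR8 at day 5 the values were 0.133 and 0.129 against 0.122 and 0.113, 0.897-fold, and POLA1 did not pass the test.

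POLE (chr12:132623753-132687365, minus strand), which copies the leading strand, rose in 5 comparisons. BT549 at day 5 had 1.60 and 1.63 RPKM in DMSO and 2.22 and 2.14 under EPZ015666, 1.35-fold, a change of 0.41 ± 0.05 (adjusted p = 0.003776). OVCAR8 at day 3 had 2.64 and 2.78 against 3.48 and 3.20, a change of 0.29 ± 0.05 (adjusted p = 0.01059). Without DMSO day 3 A that call missed the threshold (adjusted p = 0.05951). At day 5 OVCAR8 had 2.18 and 2.16 against 2.78 and 2.79, a change of 0.35 ± 0.05. Both EPZ015666 libraries lay above both DMSO libraries in each of these groups. In MDAMB436 it rose by 0.18 (1.36 and 1.38 against 1.55 and 1.58 RPKM), and in BT549 at day 3 by 0.25. In COV362 the values were 1.53 and 1.66 against 1.69 and 1.69, and the change did not pass the test.

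POLD2, POLD3, PRIM1 and POLE2 were called in 3, 1, 1 and 0 of the 6 comparisons. POLD2, which binds the catalytic subunit of polymerase delta, fell in OVCAR8 from 16.0 and 16.5 to 12.5 and 12.1 RPKM at day 5, a change of -0.40 ± 0.04 (adjusted p = 0.000951). At day 3 it fell there from 15.8 and 15.7 to 14.2 and 13.4, a change of -0.19 ± 0.04, and in COV362 it fell by 0.13. In BT549 POLD2 was at 1.07-fold on both days, with no call. POLD3 fell by 0.39 and the primase subunit PRIM1 by 0.37 in COV362, and neither was called elsewhere. The change of POLE2 was positive in all 4 lines at day 5, between 1.02-fold and 1.19-fold, with no call.

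The MCM2-7 ring showed a fall of MCM4 and MCM7 beside small changes of MCM2 and MCM5. MCM4 fell in BT549 on both days, in COV362 and in MDAMB436. MDAMB436 had 26.1 and 25.5 RPKM in DMSO and 18.8 and 18.8 under EPZ015666, 0.729-fold, a change of -0.45 ± 0.03 (adjusted p = 0.01374). BT549 had 30.2 and 30.3 against 23.0 and 23.8 at day 3, a change of -0.37 ± 0.04 (adjusted p = 0.005236). At day 5 it had 25.1 and 24.8 against 21.4 and 20.8, a change of -0.24 ± 0.04 (adjusted p = 0.006375). COV362 had 16.8 and 17.2 against 14.0 and 14.5, a change of -0.26 ± 0.03 (adjusted p = 0.007065). The groups were apart in all 4 of these comparisons. With 1 library left out the call was lost in BT549 at day 5 without EPZ015666 day 5 B (adjusted p = 0.05396), in COV362 without DMSO day 5 B (adjusted p = 0.05327) and in MDAMB436 without any of its 4. In OVCAR8 they overlapped on both days: 24.2 and 23.3 against 23.7 and 22.7 at day 5, and 29.1 and 28.2 against 28.3 and 27.8 at day 3. The MCM4 change in OVCAR8 was -0.03 on each day, and its sign at day 3 turned with voom (0.0019).

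MCM7 (chr7:100092728-100101940, minus strand), whose introns hold the microRNAs MIR25, MIR93 and MIR106B, fell in 5 comparisons and most in OVCAR8. OVCAR8 had 35.4 and 35.8 RPKM in DMSO and 26.0 and 25.4 under EPZ015666 at day 5, 0.722-fold, a change of -0.47 ± 0.02 (adjusted p = 0.0001977). At day 3 it had 38.3 and 38.7 against 31.9 and 31.5, a change of -0.28 ± 0.02 (adjusted p = 0.00164). Neither pair of groups overlapped, and both calls remained with any 1 of the 8 OVCAR8 libraries left out. COV362 went from 62.1 and 60.8 to 51.4 and 52.7, and MDAMB436 from 54.6 and 50.9 to 42.5 and 42.9. In BT549 the fall of 0.23 at day 3 passed the test, and the values of day 5, 31.1 and 29.6 against 28.3 and 27.6, did not.

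MCM3 went in both directions. It rose in OVCAR8 on both days (8.15 and 7.99 against 9.43 and 9.19 RPKM at day 5) and in BT549 at day 5 (12.2 and 11.4 against 13.7 and 13.3). It fell in MDAMB436, from 8.19 and 8.50 to 7.11 and 7.22, a change of -0.22 ± 0.04. In COV362 it was at 0.947-fold, with no call. MCM6 fell only in MDAMB436, by 0.31, among the 6 comparisons, and was at 0.901-fold to 0.993-fold in the other 5. MCM2 was between 0.910-fold and 1.07-fold in the 6 comparisons and MCM5 between 0.855-fold and 1.01-fold, with no call for either. Other annotated genes on the opposite strand cover 23.6% of MCM2's exon bases.

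**Figure D2:**
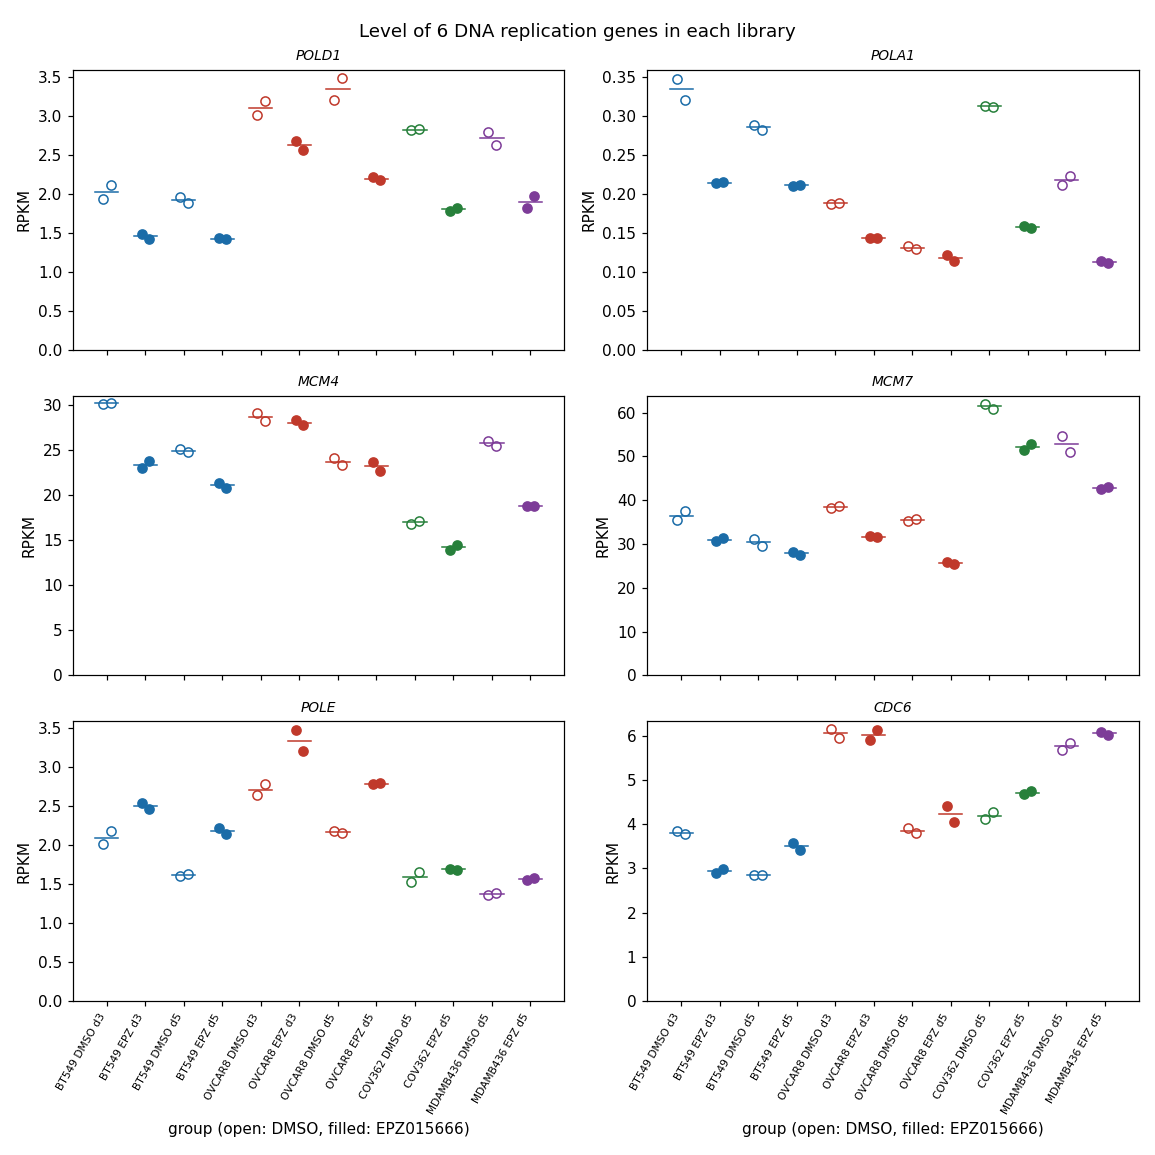
RPKM (vertical axes, from 0) of POLD1, POLA1, MCM4, MCM7, POLE and CDC6 in each of the 24 libraries, by group (horizontal axis). Open points are DMSO libraries, filled points EPZ015666 libraries, lines the mean of 2 libraries and colours the cell lines; POLD1 is lower under EPZ015666 in each line and day, and MCM4 of OVCAR8 overlaps between the treatments.

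Origin licensing genes differed by subunit. ORC6, a small subunit of the origin recognition complex, rose in COV362 from 5.49 and 5.71 to 8.55 and 8.56 RPKM, 1.53-fold, a change of 0.60 ± 0.03 (adjusted p = 0.001849). It rose also in BT549 at day 5, by 0.39, and in OVCAR8 at day 3, by 0.25. In OVCAR8 at day 5 it stood at 6.90 and 7.05 against 6.12 and 6.57, in the other direction and with no call. ORC1, the large ATP-binding subunit, fell in MDAMB436 from 2.46 and 2.45 to 1.82 and 1.74 RPKM, a change of -0.44 ± 0.04 (adjusted p = 0.01532). It fell also in OVCAR8 at day 5, by 0.37, and in BT549 at day 3, by 0.38. In BT549 at day 5 its groups overlapped, at 1.20 and 1.03 against 1.21 and 1.18. ORC2 fell in 3 comparisons, by 0.20 to 0.31, while ORC3 and ORC5 each rose in 2. ORC3 rose by 0.45 in MDAMB436 and 0.28 in COV362, and ORC5 by 0.27 in BT549 at day 5 and in COV362. ORC4 and geminin were called in none of the 6 comparisons, with ORC4 between 0.992-fold and 1.15-fold and geminin between 0.934-fold and 1.12-fold.

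CDC6 (chr17:40287633-40304657, plus strand), which brings the MCM ring to the origin complex, changed in opposite directions on the 2 days in BT549. At day 3 it was at 3.84 and 3.79 RPKM in DMSO and 2.90 and 2.99 under EPZ015666, a change of -0.36 ± 0.04 (adjusted p = 0.006358). At day 5 it was at 2.85 and 2.84 in DMSO and 3.57 and 3.42 under EPZ015666, a change of 0.29 ± 0.04 (adjusted p = 0.005136). The DMSO level of day 5 was thus close to the EPZ015666 level of day 3. Both calls remained with any 1 of the 8 BT549 libraries left out. CDC6 rose by 0.16 in COV362 (4.12 and 4.27 against 4.68 and 4.74), a call lost without any of its 4 libraries. In MDAMB436 it was at 5.68 and 5.84 against 6.08 and 6.02, and in OVCAR8 at day 5 at 3.91 and 3.79 against 4.41 and 4.05, apart in both lines but with no call. In OVCAR8 at day 3 the groups overlapped, at 6.16 and 5.96 against 5.91 and 6.12. CDT1, its partner in loading, fell in OVCAR8 at day 5, by 0.25, from 29.1 and 31.4 to 25.1 and 25.7 RPKM, and was called nowhere else.

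Among the activators of the helicase GINS3 was at 1.48-fold in MDAMB436, 1.21-fold in COV362 and 1.12-fold in BT549 at day 5, with no call. It rose in OVCAR8. It had 0.218 and 0.199 RPKM in DMSO and 0.304 and 0.301 under EPZ015666 at day 5, 1.45-fold, a change of 0.39 ± 0.05 (adjusted p = 0.002757). At day 3 it had 0.302 and 0.302 against 0.384 and 0.392, a change of 0.28 ± 0.05 (adjusted p = 0.01408). The call of day 3 was lost without any 1 of the 4 libraries of day 3, and that of day 5 remained without any of the 8. GINS2 rose in OVCAR8 at day 3 and in COV362, by 0.21 and 0.17, calls lost without any 1 of the line's libraries. GINS1, of the same 4-subunit complex, fell in BT549 at day 3, by 0.31, and in COV362, by 0.38, so that in COV362 GINS1 and GINS2 were called in opposite directions. The GINS1 call of COV362 was lost without DMSO A or B, and that of BT549 without EPZ015666 day 3 A or B. CDC45 fell in OVCAR8 at day 5 by 0.24 and in MDAMB436 by 0.38. MCM10 fell in BT549 at day 3 by 0.27 and rose there at day 5 by 0.27, and it rose in COV362 by 0.17. The MCM10 call was lost without any of 7 of the 8 BT549 libraries at day 3, all but DMSO day 3 B, without any of the 4 of day 5 at day 5, and without any of the 4 in COV362. GINS4 had 41 to 218 reads per library, and genes on the opposite strand cover 80.0% of its exon bases; it was not called.

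The clamp and its loader fell in part. RFC4 fell in MDAMB436 from 2.41 and 2.57 to 1.56 and 1.55 RPKM, 0.623-fold, a change of -0.65 ± 0.05 (adjusted p = 0.01392), and in OVCAR8 at day 5 by 0.38. In BT549 it was at 1.09-fold and 1.13-fold on the 2 days, with no call. RFC5 fell in 4 comparisons, by 0.18 to 0.33: both days of OVCAR8, COV362 and MDAMB436. PCNA, the sliding clamp, was below 1-fold in all 6 comparisons, between 0.849-fold and 0.988-fold, and passed the test in COV362, where it went from 16.6 and 16.8 to 14.1 and 14.2 RPKM. RFC1 fell in COV362 by 0.23, RFC2 rose there by 0.16, and RFC3 rose in BT549 at day 5 by 0.35.

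Of the genes for nucleotide supply, lagging strand completion and chromatin assembly, LIG1, RRM1 and CHAF1A were each called in 2 comparisons. LIG1, the ligase that seals Okazaki fragments, fell in COV362 from 0.982 and 0.993 to 0.717 and 0.690 RPKM, a change of -0.44 ± 0.04 (adjusted p = 0.003897), and in BT549 at day 5 by 0.29. Genes on the opposite strand cover 27.6% of its exon bases. RRM1, the large subunit of ribonucleotide reductase, rose in OVCAR8 by 0.17 at day 3 and 0.13 at day 5, the latter lost with any of 7 of the 8 libraries left out. CHAF1A, which places histones on new DNA, fell in BT549 at day 3 by 0.26 and rose in COV362 by 0.15. RRM2, with 5 to 69 reads per library, and FEN1, with 3 to 32, lie mostly within other annotated genes (85.4% and 92.9% of their exon bases), and nothing is read from their changes.

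The mean of the 4 lines' day 5 changes, called the common effect here, was tested in 1 model over 36 members measured in all lines. Of these 11 rose and 19 fell, beside 33.8% and 31.8% of 10349 genes, with a median of -0.11 beside 0.01 over all genes. The p-values are set against the spread between libraries of a group and not between lines. A member can thus pass with lines of opposite sign, as ORC2 did with 2 lines positive and 2 negative. The smallest adjusted p values belonged to POLA1 (-0.41 ± 0.02, adjusted p = 3.924e-10) and POLD1 (-0.53 ± 0.03, adjusted p = 4.752e-10), each lower in 4 of 4 lines. MCM4 (-0.25 ± 0.02, adjusted p = 4.311e-09) and MCM7 (-0.28 ± 0.02, adjusted p = 6.327e-09) followed, lower in 4 of 4 lines as well. POLE rose by 0.25 and ORC6 by 0.28, the former higher in 4 of 4 lines and the latter in 3. MCM6, PCNA, RFC1, RFC5, POLD3, LIG1, GINS1, GINS4 and PRIM1 also fell with the same sign in 4 of 4 lines, and ORC3, CDC6, GINS2, GINS3, RFC3, POLE2 and RRM1 rose with the same sign in 4 of 4. By role, 4 of 6 MCM2-7 genes fell and none rose, and 5 of 7 polymerase and primase genes fell and 2 rose. The GINS4, GINS2, PRIM1 and POLE2 calls were the ones lost when a library was left out, by 8, 9, 5 and 8 of the 24 libraries, and the calls of the other 26 remained in all 24 fits.

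The size of the day 5 change differed between the lines for 24 of the 36 members, beside 65.8% of all genes. The adjusted p of the difference was smallest for POLA1 (4.425e-06), where COV362 and MDAMB436 had 0.504-fold and 0.515-fold and OVCAR8 0.897-fold. MCM3 (1.248e-05) ran from 0.858-fold in MDAMB436 to 1.15-fold in OVCAR8, and MCM4 (1.715e-05) from 0.729-fold in MDAMB436 to 0.978-fold in OVCAR8. ORC6 (0.0001202) ran from 0.909-fold in OVCAR8 to 1.53-fold in COV362. POLD1 was not among the 24.

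Many of these genes were lower at day 5 than at day 3 in DMSO, without any inhibitor. The day cannot be told apart from anything else in which the libraries of the 2 days differed. Between day 3 and day 5 in DMSO 0 of 37 members rose and 11 fell in BT549, beside 5.62% and 3.15% of all genes, and 0 rose and 20 fell in OVCAR8, beside 12.0% and 11.4%. At an unadjusted p under 0.05, limma gave 0 rising and 20 falling members in BT549 and 0 and 25 in OVCAR8, and voom on the recovered reads gave 0 and 21, and 0 and 24. The median member changed by -0.17 in BT549 and -0.22 in OVCAR8, beside 0.02 and 0.0042 over all genes. Per library, the median member of the DMSO day 3 libraries stood 0.17 and 0.20 above the day 5 mean in BT549, and 0.20 above it in each in OVCAR8.

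CDC6 fell from 6.16 and 5.96 to 3.91 and 3.79 RPKM in OVCAR8, 0.636-fold, a change of -0.64 ± 0.05 (adjusted p = 0.003113). In BT549 it fell from 3.84 and 3.79 to 2.85 and 2.84, a change of -0.41 ± 0.04 (adjusted p = 0.01104), a call lost without DMSO day 5 A or B (adjusted p of up to 0.09603). MCM4 fell in BT549 from 30.2 and 30.3 to 25.1 and 24.8, and in OVCAR8 from 29.1 and 28.2 to 24.2 and 23.3, 0.826-fold and 0.828-fold. MCM10 fell in BT549 from 0.979 and 0.863 to 0.637 and 0.656, a change of -0.45 ± 0.06, and in OVCAR8 by 0.52. GINS1 fell in OVCAR8 from 1.77 and 1.69 to 1.26 and 1.34, a change of -0.38 ± 0.04, and MCM5 from 5.96 and 6.02 to 4.71 and 4.93, a change of -0.31 ± 0.04. No DMSO day 5 library of these genes reached its line's day 3 libraries. POLE, which rose under the inhibitor, was lower at day 5 in DMSO by 0.36 in BT549 and 0.31 in OVCAR8. POLD1 was not called between the days in DMSO and stood at 0.948-fold in BT549 and 1.08-fold in OVCAR8. In OVCAR8 11 of 16 tested members with an E2F match fell and 7 of 17 without, and in BT549 6 of 16 and 4 of 17. Under EPZ015666 at day 5 the members that fell were 2 of 16 with a match and 6 of 17 without in OVCAR8. In BT549 they were 2 of 16 and 1 of 17. At day 3 they were 2 of 16 and 4 of 17 in OVCAR8, and 4 of 16 and 4 of 17 in BT549. In COV362 at day 5 they were 5 of 16 and 6 of 19, and in MDAMB436 4 of 16 and 6 of 19. The members that rose at day 5 were 4 of 16 with a match and 3 of 17 without in BT549, and 3 and 1 in OVCAR8. In COV362 they were 3 of 16 and 5 of 19, and in MDAMB436 2 and 0. At day 3 the rising members were 1 and 0 in BT549 and 4 and 2 in OVCAR8. These differences were not tested, and the shares among all genes with a match were not counted.

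The BT549 count of 11 became 0 without DMSO day 5 A or B, 2 without EPZ015666 day 5 A or B, 3 without DMSO day 3 A and 5 without DMSO day 3 B. The OVCAR8 count of 20 became 10 without DMSO day 5 A, 9 without DMSO day 5 B or DMSO day 3 B, and 8 without DMSO day 3 A. With each library left out in turn 0 of the 11 calls remained in BT549, and in OVCAR8 7 of the 20 did, those of CDC6, MCM3, MCM4, MCM5, MCM10, GINS1 and GINS3. Of all genes called between the days in BT549 64.1% were higher, and with voom 40.9%.

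Each drug comparison uses the DMSO libraries of its own day. Whether the lower DMSO level of day 5 bears on the day 5 calls was not tested. The comparisons of a line share these libraries, so their values are given side by side. In BT549 11 of 37 members were lower and 0 higher in EPZ015666 of day 5 than in DMSO of day 3, beside 11.3% and 10.0% of all genes. In OVCAR8 25 were lower and 0 higher, beside 16.7% and 13.2%. This comparison, chosen after the data were seen, mixes drug and day. Its change is the sum of the DMSO change between the days and the day 5 drug change, so it is not a separate result. An unadjusted p under 0.05 gave 0 rising members in both lines. The members' median was -0.12 in BT549 and -0.30 in OVCAR8. POLE was then not called in either line, and POLD1 fell in both, by 0.48 in each. At day 3 POLE rose under EPZ015666 against DMSO of the same day, by 0.25 in BT549 and 0.29 in OVCAR8.

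**Figure D3:**
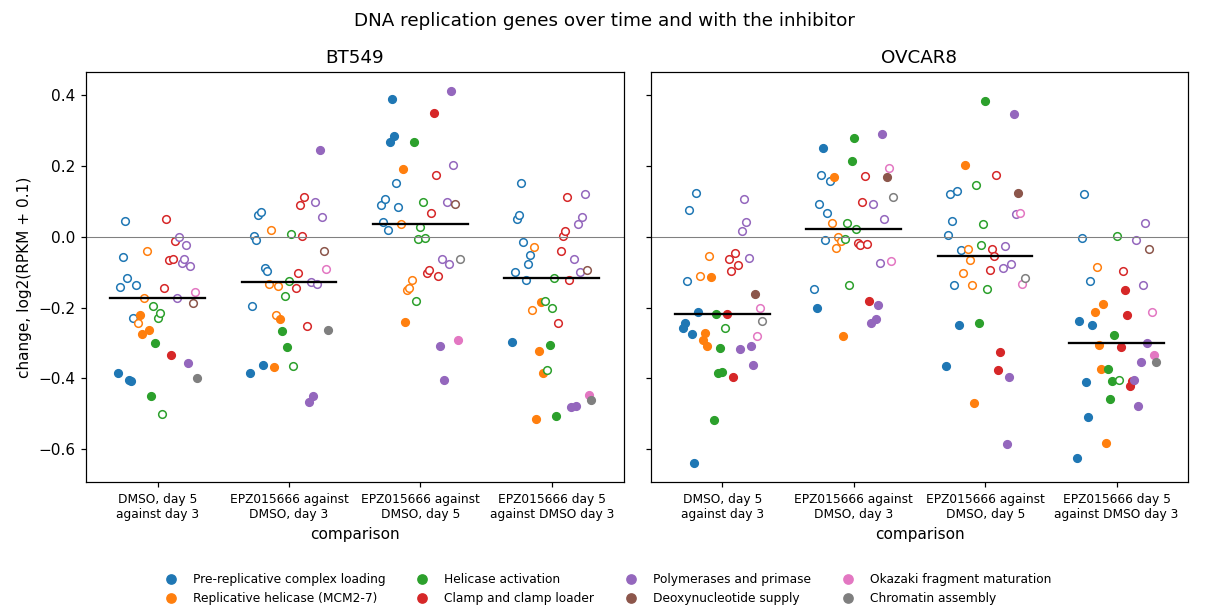
Change of each tested replication gene (points, coloured by role) on the log2(RPKM + 0.1) scale in 4 comparisons of BT549 (left) and OVCAR8 (right); filled points passed the test, and black lines are medians. The DMSO day 5 against day 3 points lie mostly below 0, with medians of -0.17 and -0.22, and the day 5 drug comparison has a median of 0.04 in BT549 and -0.06 in OVCAR8.

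The drug effect of day 5 was tested against that of day 3 in each line. In BT549 1 of 37 members, CDC6, differed, beside 0.205% of genes higher and 0.614% lower. The difference was 0.65 ± 0.06 (adjusted p = 0.01666). With 1 library left out the adjusted p ranged up to 0.1325, and the call remained in 1 of 8 fits, the one without DMSO day 3 B, where 2 members were called. At an unadjusted p under 0.05, 10 members were higher and 0 lower, with voom 7 were called higher, and the median was 0.14. In OVCAR8 0 of 37 members passed in either direction, beside 0.391% and 0.545% of genes, with 1 higher and 9 lower at an unadjusted p under 0.05, 7 lower with voom and a median of -0.12. Among all genes called for the difference in BT549 25% were higher, with voom 65.1% and with the library letter as a block 40%.

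Levels in the vehicle differed between the lines for 36 of 36 members at day 5, beside 95.5% of all genes. The median member was 2.04-fold higher in the line with the most than in the line with the least. COV362 was the highest line for 14 members, OVCAR8 for 12, MDAMB436 for 11 and BT549 for 2, and BT549 was the lowest for 19. The 4 smallest adjusted p values were those of MCM3, MCM7, RFC2 and POLD3. MCM3 had 18.2 and 18.5 RPKM in COV362, 12.2 and 11.4 in BT549, 8.19 and 8.50 in MDAMB436 and 8.15 and 7.99 in OVCAR8, the last 2 lines next to each other without overlap. MCM7 had 62.1 and 60.8 in COV362, 54.6 and 50.9 in MDAMB436, 35.4 and 35.8 in OVCAR8 and 31.1 and 29.6 in BT549. RFC2 had 6.02 and 5.80 in OVCAR8, 4.38 and 4.25 in MDAMB436, 3.82 and 3.97 in COV362 and 2.85 and 2.75 in BT549. POLD3 had 0.724 and 0.693 in COV362, 0.447 and 0.423 in BT549, 0.400 and 0.386 in OVCAR8 and 0.235 and 0.223 in MDAMB436. BT549 stood lowest for MCM7 and RFC2, and MDAMB436 for POLD3. ORC5 had the widest range, from 0.0852 and 0.0892 RPKM in OVCAR8 to 0.673 and 0.690 in MDAMB436, 7.82-fold, and was not among the 36 because its mean in OVCAR8 was under 0.1.

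Between genes, levels were compared per kilobase of annotated exon and M recovered reads, as means over the 4 lines' vehicle groups of day 5. PCNA was highest at 146, followed by MCM7 at 95.4, MCM3 at 66.5, MCM4 at 59.0 and MCM6 at 47.6. The origin subunits ORC1 to ORC6 ran from 5.14 (ORC4) to 16.8 (ORC3). The helicase activators ran from 0.714 (GINS4) to 15.8 (GINS1), and the catalytic subunits stood at 18.7 for POLD1, 11.3 for POLA1 and 6.47 for POLE. The MCM2-7 subunits, which sit in the ring in equal number, spread from 17.8 (MCM5) to 95.4 (MCM7). These levels assume that all counted reads came from exons. The kilobases are those of all annotated exons of a gene merged, 7338 bases for MCM5, 4386 for MCM7 and 16609 for POLE. That length can exceed the length of the RNA that was made, so the order of the genes depends on the annotation.

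**Figure D4:**
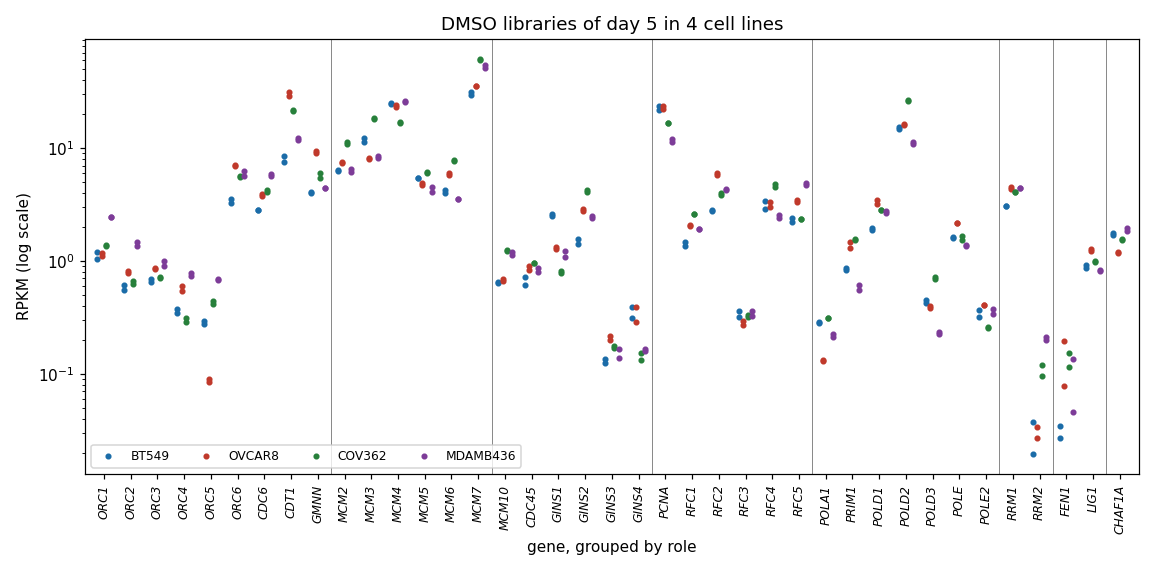
RPKM on a log axis (vertical) of each replication gene (horizontal axis, grouped by role) in the DMSO libraries of day 5, 2 points per line and 4 lines by colour. Levels span from under 0.1 RPKM for RRM2 to 62.1 for MCM7 in COV362, and BT549 is the lowest line for 19 genes.

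A further 36 replication genes (checkpoint and firing factors, single-strand binding proteins, RNase H2, histone chaperones and topoisomerases) were counted beside the members. Under EPZ015666 in BT549, 8 of 35 rose and 2 fell at day 5, beside 13.6% and 16.6% of all genes. At day 3, 1 rose and 7 fell there, beside 5.76% and 6.98%. In OVCAR8 9 of 35 rose and 11 fell at day 5, beside 20.2% and 23.0%, and 6 and 6 at day 3, beside 11.5% and 14.1%. In COV362 9 of 36 rose and 12 fell, beside 27.6% and 26.4%. In MDAMB436 4 of 35 rose and 5 fell, beside 11.3% and 12.4%. In DMSO, from day 3 to day 5, 0 of 35 rose and 9 fell in BT549, beside 5.62% and 3.15%. In OVCAR8 1 rose and 19 fell, beside 12.0% and 11.4%. Differences from these shares were not tested. RNASEH2C, a subunit of the enzyme that removes ribonucleotides from DNA, fell in BT549 by 0.94 and 0.67 at days 5 and 3, in OVCAR8 by 0.74 and 0.48, in MDAMB436 by 0.60 and in COV362 by 0.55, or in 6 of 6 comparisons. DBF4, the activator of the origin-firing kinase CDC7, rose at day 5 in BT549 by 0.48, in COV362 by 0.17 and in OVCAR8 by 0.13, and was lower at day 5 than at day 3 in DMSO by 0.23 in BT549 and 0.22 in OVCAR8. ASF1B, a histone chaperone, fell in COV362 by 0.52, in BT549 by 0.27 and 0.37 at days 5 and 3 and in OVCAR8 by 0.36 and 0.17, and was not called in MDAMB436. POLE4, a small subunit of polymerase epsilon, rose in BT549 by 0.75 and 0.79 at days 5 and 3, in MDAMB436 by 0.53, in COV362 by 0.47 and in OVCAR8 at day 3 by 0.42, and was not called in OVCAR8 at day 5 (0.03).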

How the data were processed

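RPKM values were computed by the authors from stranded poly(A) RNA sequencing. Counting used featureCounts and the GRCh38 build, per the submitters' processing notes; for the aligner, the annotation and all versions, these are not given in the sources used. Each deposited value times the gene's whole span in GENCODE 29 gave a whole number of reads (within 0.02) for 100% of values under 1000 reads, for the 16544 genes with 1 span and not for 47. The median chi-square between replicates was 1.86 to 5.09 times that of counting error. Values were taken as log2(RPKM + 0.1) and fitted per cell line with limma 3.58.1 (R 4.3.3, trend), 1 mean per group, over genes with a mean of at least 0.1 RPKM. The common effect and the F tests between lines used all 24 libraries. P-values are two-sided and adjusted by Benjamini-Hochberg over all genes of a comparison. The day 5 drug comparisons were also run on data simulated with an assumed spread between libraries, which may differ from the real spread. Letters A and B were not taken as pairs, since the correlation of their A minus B differences between groups was -0.257 to 0.187.

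The members, the lists and the naming rule were chosen with earlier results of these data known. Values in each library are given for MCM4, CDC6 and the members with the smallest adjusted p (4 per drug comparison or F test, 3 per DMSO comparison or difference of days), and the others by range or count; ORC5, PCNA, CDT1 and values set beside a named comparison were chosen after their values were seen. Alternatives were a pseudocount of 1, no filter, a mean of at least 1 RPKM, median-of-ratios scaling, a replicate block, voom on recovered reads of genes with at least 1 CPM, and leaving out each library. Promoters are the first RefSeq entry of a symbol.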

Additional observations from a re-analysis of the deposited data

Results flagged for a closer look

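The drug effect differed between days for 1 member in BT549, CDC6, with an adjusted p of 0.01666 for the difference itself (limma), lower in both EPZ015666 libraries at day 3 and higher in both at day 5. The drug effect of day 5 differed between the 4 lines for 24 of 36 members by an F test, beside 65.8% of all genes. The adjusted p was 4.425e-06 for POLA1, 1.248e-05 for MCM3, 1.715e-05 for MCM4 and 0.0001202 for ORC6. MCM3 rose in BT549 and OVCAR8 and fell in MDAMB436, and the other 3 differed mainly in size, with ORC6 of OVCAR8 on the other side of 1-fold.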

How the results depend on the processing

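Median-of-ratios scaling and a pseudocount of 1 left each count of members within 1.5 times of the reported one. Without a filter 1 member rose in MDAMB436. With a mean of at least 1 RPKM, which tests fewer genes, 4 rose and 2 fell in BT549 at day 5, 4 were lower in the OVCAR8 difference of days, 6 rose and 11 fell in common, 13 differed in effect between lines and 22 in DMSO level. With voom on recovered reads 12 rose in BT549 at day 5, 8 and 13 in OVCAR8 at days 5 and 3, and 10 rose and 18 fell in MDAMB436. With voom 21 fell in BT549 over time in DMSO, 7 were higher in the BT549 difference of days and 7 lower in that of OVCAR8. Against DMSO of day 3, EPZ015666 of day 5 gave 0 higher and 11 lower in BT549 and 0 and 25 in OVCAR8.

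The replicate letter as a block (a replicate block over unpaired letters) gave 0 higher in BT549 at day 3, 3 higher and 2 lower in OVCAR8 at day 3, 5 higher in COV362, 0 in either direction in MDAMB436, 7 lower in BT549 over time and 0 in its difference of days. Other counts stayed within 1.5 times.

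With 1 library left out, BT549 at day 5 had 2 to 7 higher and 1 to 5 lower, and at day 3 0 to 1 and 2 to 8. OVCAR8 at day 3 had 1 to 5 and 1 to 4, COV362 1 to 2 and 7 to 12, and MDAMB436 0 to 0 in both directions. Over time in DMSO 0 to 8 were lower in BT549 and 8 to 19 in OVCAR8, and the BT549 difference of days had 0 to 2 higher. The fit then takes a lone library's spread from the other groups.

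Of the values of single genes under an alternative, 8 turned in sign, all of them small and past no threshold. The CDC6 change in OVCAR8 at day 3 (-0.01) was 0.0247 with voom and -0.03588 to 0.0159 with 1 library left out. The MCM4 change there (-0.03) was 0.0019 with voom, and its difference of days (-0.00038) ran from -0.0297 to 0.0289 with 1 library left out. Another 426 lost their call, 371 of them with a library left out, 2 gained one (CDC6 in OVCAR8 at day 5, with voom and without EPZ015666 day 5 B), and 1947 stayed on their side of the threshold. In each such case the cause was not tested. RRM2, FEN1 and GINS4 are limited by their reads. In the simulated data, with 2 libraries a group and an assumed spread, changes under 2-fold were often missed. A gene without a call is thus not shown to have held its level.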
